A study of Mus musculus with 6 samples.

Results

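The genes described here make, read and remove methyl marks on RNA bases in mouse neural progenitor cells (NPCs). They were chosen by name, and all 10 were found among the 51733 gene symbols of the count tables. Nsun2, Nsun5 and Trdmt1 encode methyltransferases that place 5-methylcytosine (m5C), and Alyref encodes an mRNA export factor that binds m5C. Mettl3, Mettl14 and Wtap encode the catalytic core and an adaptor of the complex that places N6-methyladenosine (m6A). Ythdf2 encodes a reader that directs m6A-marked mRNA to decay, and Fto and Alkbh5 encode demethylases. All 10 had a mean above 1 FPKM in at least one genotype and so were among the 21328 genes tested.

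Bases in RNA can be methylated after transcription, by enzymes called writers. Readers bind the mark and pass it on to mRNA export, stability or translation, and erasers take it off. In the embryonic brain, m6A is known for its part in the timing of neurogenesis, and m5C on tRNA protects tRNA from cleavage. Ybx1, the gene deleted in this study, encodes a cold-shock domain protein that binds DNA and RNA and is itself known as an m5C reader.

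The libraries came from Sox2-positive NPCs sorted from neural tubes of E13.5 embryos of the C57BL/6 strain, 3 from control embryos labelled wildtype and 3 from Ybx1-KO embryos. The study sorted these NPCs by Sox2-GFP, a reporter allele carried by control and Ybx1-KO embryos. The Ybx1 allele is a germline null carried by every cell of the embryo, and the study's controls were siblings. The labels do not say how many embryos went into a library. Stranded libraries of total RNA were sequenced in pairs of 100-cycle reads and counted per gene. Libraries are named here control 1 to 3 and Ybx1-KO 1 to 3. The titles of control 1 and 2 hold a common number, and so do those of Ybx1-KO 1 and 2, and nothing says what these numbers stand for, so p-values measure the spread between these libraries.

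The libraries stood apart in depth and makeup. Total counts on genes ran from 20841990 to 23883542 in control and from 4743279 to 13321952 in Ybx1-KO NPCs, so that 3 counts amounted to 0.126 CPM in the deepest library and 0.632 CPM in the shallowest. Ybx1-KO 3, the shallowest, had 7.22% of its read pairs on genes, against 18.0 to 24.7% in the other 5. It also had 59.5% of read pairs outside genes, counts on 39553 genes against 19649 to 30482, and, without TMM, 4554 CPM in sum on 1729 olfactory, vomeronasal and taste receptor symbols against 22.5 to 95.9 CPM. Levels between libraries are given as CPM, counts divided by a library size that was scaled by TMM, a trimmed mean of M-values, with factors from 0.734 in Ybx1-KO 2 to 1.51 in Ybx1-KO 3. Ybx1 itself had 235, 523 and 301 CPM in control and 124, 54.5 and 9.51 CPM in Ybx1-KO NPCs, so its groups did not overlap. For Ybx1 the log2 fold change was -2.49 (95% interval -3.92 to -1.06, adjusted p = 0.301 by the edgeR quasi-likelihood fit, Benjamini-Hochberg adjusted). The remaining counts may come from parts of the gene outside the deletion, which could not be separated here. They differed widely between the Ybx1-KO libraries and were highest in Ybx1-KO 1, and other sources of them were not tested.

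The NPC label was set against fixed marker genes. All 8 progenitor markers, Sox2, Pax6 and Nes among them, were detected in every library, with summed levels of 1430 to 1597 CPM in control and 1083 to 1809 CPM in Ybx1-KO NPCs. Of these 8, 5 were higher and 3 lower in Ybx1-KO NPCs. The groups did not overlap for Nes (52.6 to 129 CPM in control, 165 to 283 CPM in Ybx1-KO NPCs). Nor did they for Hes5 (20.2 to 29.8 and 40.9 to 70.0 CPM). Groups were likewise apart, in either direction, for 13.1% of all tested genes. The study, by contrast, listed Hes5 among the genes lower in Ybx1-KO NPCs, from RNA-seq and TaqMan assays. Markers of other cells were present too. The 8 neuron markers summed to 2976 to 4406 CPM in control and to 3192, 2993 and 1209 CPM in Ybx1-KO 1, 2 and 3. Only Ybx1-KO 3 thus lay below the control range in sum, although 7 of the 8 had a log2 fold change below 0. The neuron markers Snap25 (111 to 167 CPM in control, 50.8 to 79.7 CPM in Ybx1-KO NPCs) and Syt1 (57.1 to 81.8 and 39.5 to 49.9 CPM) did not overlap. The 5 mesenchyme markers, collagens among them, summed to 112 to 827 CPM in control and 59.6 to 110 CPM in Ybx1-KO NPCs. All 5 were lower, and of these Lum (6.13 to 49.9 and 2.38 to 4.35 CPM) did not overlap. Erythroid markers summed to 472 to 1151 CPM in control and 152 to 886 CPM in Ybx1-KO NPCs, while microglia and endothelium markers stayed at or below 39.1 CPM in sum. The edgeR fit called none of the marker genes, whereas DESeq2 called Nes (log2 fold change 1.52), Snap25 (-1.20), Dcn (-3.34) and Hbb-bs (-4.63). None was at 0 in every library, although Aif1 and C1qa, of microglia, were at 0 in some. In bulk RNA, fewer cells of a type cannot be told apart from less RNA per cell, and the part of these cells in the values below was not tested.

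At the level of single genes, no writer, reader or eraser was called different between the genotypes. With TMM the libraries of both groups overlapped for every gene but Mettl3, or 10% apart beside 13.1% of all tested genes. With total counts Nsun5 was apart in place of Mettl3, beside 11.1% of all tested genes. Of the 10 genes, 0 passed the call rule (fold change above 1.5 with an adjusted p under 0.05), which 0% of all tested genes passed, although DESeq2 called 180 of all tested genes. An unadjusted p below 0.05 was also reached by 0 of the 10, against 11.2% of all tested genes, and the adjusted p-values ran from 0.480 to 0.968 (edgeR quasi-likelihood fit, Benjamini-Hochberg adjusted). The log2 fold change, Ybx1-KO over control, was above 0 for 7 genes and below 0 for Mettl14, Wtap and Fto, with a median of 0.36 beside 0.31 over all tested genes. Fitted with protein-coding genes alone, the median was 0.39 for the 10 genes, all of them protein-coding, beside 0.16 over all genes tested there. DESeq2 and limma-voom also called 0 of the 10 and gave none of them an unadjusted p below 0.05. An absence of calls does not show equal levels, since the 95% intervals of the log2 fold changes reached from -1.10 to 1.68.

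**Figure D1:**
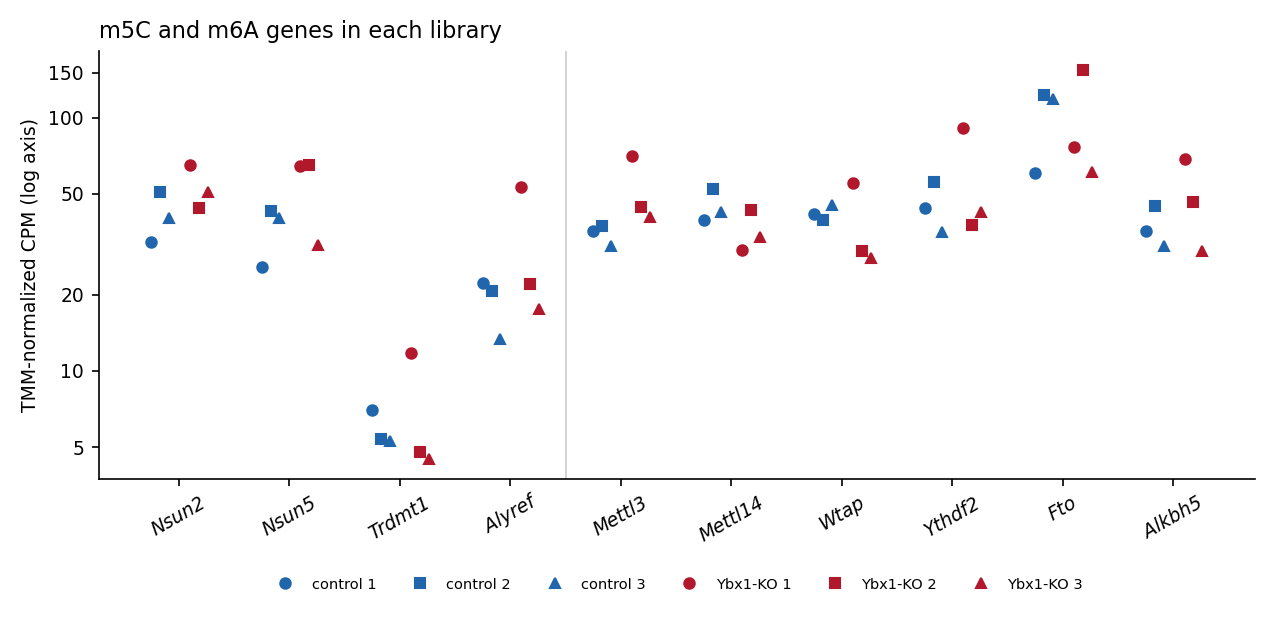
TMM-normalized CPM (log axis) of the 10 genes in each library, control in blue and Ybx1-KO in red, with m5C genes left and m6A genes right of the line. Ybx1-KO 1 is the highest of the 6 libraries for 7 genes, and for 19.0% of all tested genes. Mettl3 alone has every Ybx1-KO library above every control library, as held for 4.98% of all tested genes.

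The levels of the genes relative to each other were compared per length, as FPKM, that is counts divided by exon length and by the library's total on genes, within control NPCs. Ythdf2, the m6A reader, had the highest control median with 9.77 FPKM, followed by Nsun5 with 8.63 FPKM and Fto with 8.39 FPKM. Mettl3, Wtap, Nsun2, Alkbh5 and Mettl14 came next, with medians between 6.71 and 5.39 FPKM, and Alyref had 4.89 FPKM. Trdmt1, a tRNA methyltransferase also known as Dnmt2, had the lowest control median with 1.28 FPKM. Of the 9 neighbours in this order, 8 overlapped in their control ranges, and only Alyref (3.21 to 5.90 FPKM) and Trdmt1 (1.28 to 1.85 FPKM) did not. Within a library the order does not depend on scaling: Trdmt1 was the lowest of the 10 in 6 of 6 libraries, and the highest was Ythdf2 in 4 and Nsun5 in 2.

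**Figure D2:**
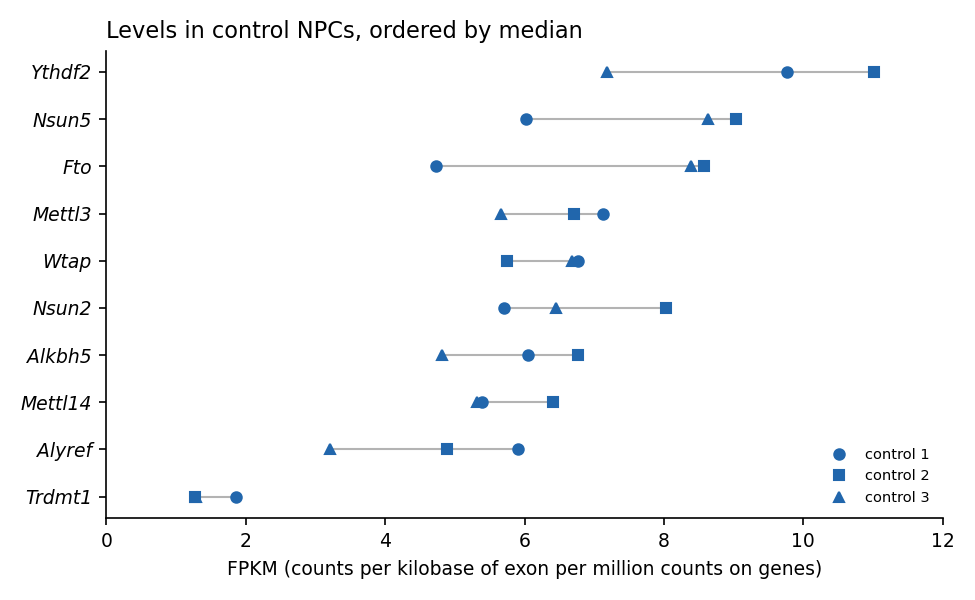
FPKM of each gene in the 3 control libraries (points) with their range (grey line), ordered by the median. Trdmt1 lies below 2 FPKM and apart from all others, whose ranges overlap from one neighbour to the next.

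Among the m5C writers, Nsun2 places m5C on tRNA and mRNA. It lies on the plus strand of chromosome 13 (GRCm38, chr13:69533746-69635780). Its levels were 32.2, 50.7 and 40.0 CPM in control and 65.0, 44.0 and 50.6 CPM in Ybx1-KO NPCs. The groups overlapped, with means of 41.0 ± 9.28 and 53.2 ± 10.7 CPM (SD, n = 3 each). The log2 fold change was 0.38 (95% interval -0.40 to 1.16).

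Nsun5, which methylates a cytosine of the large ribosomal RNA, lies on chromosome 5 (chr5:135369953-135376805, plus strand). It had 25.6, 42.9 and 40.2 CPM in control and 64.1, 65.1 and 31.5 CPM in Ybx1-KO NPCs. Ybx1-KO 1 and 2 lay above all controls, while Ybx1-KO 3 lay among them. Nsun5 had a log2 fold change of 0.56 (95% interval -0.28 to 1.41). With libraries scaled by their total counts and no TMM, all 3 Ybx1-KO libraries of Nsun5 lay above control, and those of Mettl3 did not.

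Trdmt1, on the minus strand of chromosome 2 (chr2:13509014-13544668), had 6.99, 5.39 and 5.30 CPM in control and 11.7, 4.80 and 4.48 CPM in Ybx1-KO NPCs. One Ybx1-KO library thus lay above and the other two below every control. This gene rested on the fewest reads, with 32 counts in Ybx1-KO 3 and 148 in control 1, and its interval was the widest of the 10 (log2 fold change 0.25, 95% interval -1.10 to 1.60). Without Ybx1-KO 1 the log2 fold change was -0.41.

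Alyref, the m5C reader and export factor, lies on the minus strand of chromosome 11 (chr11:120592121-120598365). It had 22.3, 20.6 and 13.3 CPM in control and 53.0, 22.0 and 17.6 CPM in Ybx1-KO NPCs. A single library set this difference: Ybx1-KO 1 stood above the rest, and Ybx1-KO 2 and 3 lay within the control range. The log2 fold change of Alyref was the largest of the 10, at 0.72 (95% interval -0.24 to 1.68, adjusted p = 0.480 by the edgeR quasi-likelihood fit, Benjamini-Hochberg adjusted), and 0.015 without Ybx1-KO 1. Alyref2, a close copy of Alyref, had 2.30 to 6.75 CPM in control and 0.715 to 3.80 CPM in Ybx1-KO NPCs, and reads that match both may have been split or dropped in counting.

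Of the m6A writers, Mettl3 is the catalytic subunit. It lies on the minus strand of chromosome 14 (chr14:52294841-52305128) and was covered by 290 to 813 counts a library. It had 35.6, 37.5 and 31.0 CPM in control and 70.5, 44.3 and 40.6 CPM in Ybx1-KO NPCs. All 3 Ybx1-KO libraries lay above all 3 controls, as held for 4.98% of all tested genes, and the means were 34.7 ± 3.32 and 51.8 ± 16.3 CPM (SD, n = 3 each). The two-sided exact permutation test gave p = 0.1, the smallest it can give here. Mettl3 had a log2 fold change of 0.58 (95% interval -0.21 to 1.37, adjusted p = 0.490 by the edgeR quasi-likelihood fit, Benjamini-Hochberg adjusted), and 0.22 without Ybx1-KO 1. With DESeq2's size factors the groups of Mettl3 were again apart, but not with total counts.

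Mettl14, the partner that holds the RNA substrate for Mettl3, lies on chromosome 3 (chr3:123368297-123386108, minus strand). It had 39.3, 52.3 and 42.5 CPM in control and 29.9, 43.2 and 33.7 CPM in Ybx1-KO NPCs. Ybx1-KO 1 and 3 lay below all controls and Ybx1-KO 2 among them. At -0.33 (95% interval -1.09 to 0.44), its log2 fold change was the lowest of the 10 and lay below 0 in all 14 alternative fits.

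Wtap, the adaptor that brings the writer to nuclear speckles, lies on chromosome 17 (chr17:12966796-12994169, minus strand). It had 41.6, 39.5 and 45.0 CPM in control and 55.4, 29.6 and 27.8 CPM in Ybx1-KO NPCs. Controls were close together, with Ybx1-KO 1 above them and Ybx1-KO 2 and 3 below. Wtap had a log2 fold change of -0.16 (95% interval -0.97 to 0.65), and 0.026 with total counts in place of TMM. It was -0.62 without Ybx1-KO 1.

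Ythdf2, on the minus strand of chromosome 4 (chr4:132184912-132212303), had 44.0, 55.4 and 35.4 CPM in control and 91.2, 37.6 and 42.4 CPM in Ybx1-KO NPCs. Again Ybx1-KO 1 stood above and the other two lay within the control range. For Ythdf2 the log2 fold change was 0.34 (95% interval -0.53 to 1.22), and -0.25 without Ybx1-KO 1.

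Of the erasers, Fto, which also demethylates the base next to the mRNA cap, lies on the plus strand of chromosome 8 (chr8:91313525-91668439). It had 60.6, 123 and 118 CPM in control and 76.2, 154 and 61.1 CPM in Ybx1-KO NPCs. The Ybx1-KO libraries lay on both sides of the control median, and the log2 fold change was -0.051 (95% interval -0.99 to 0.89). It turned to 0.014 with total counts and to 0.013 with DESeq2's size factors.

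Alkbh5 lies on the plus strand of chromosome 11 (chr11:60536381-60558512). It had 35.6, 44.6 and 31.1 CPM in control and 68.7, 46.2 and 29.7 CPM in Ybx1-KO NPCs. Ybx1-KO 1 and 2 lay above every control, Ybx1-KO 2 only just, and Ybx1-KO 3 lay below. For Alkbh5 the log2 fold change was 0.38 (95% interval -0.46 to 1.21), and -0.026 without Ybx1-KO 1.

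Exons of 4 of the 10 genes overlap exons of a gene on the other strand, and the strand setting of the counting is not given in the sources used here. Mettl3 shares 933 bases with Tox4, Nsun5 shares 665 bases with Pom121, Nsun2 shares 165 bases with Tent4a and 469 with Gm17108, and Fto shares 304 bases with Gm45427 and 144 with 4831440D22Rik. The values of these 4 are uncertain to that extent.

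One library, Ybx1-KO 1, was the highest of the 6 libraries for Nsun2, Trdmt1, Alyref, Mettl3, Wtap, Ythdf2 and Alkbh5, that is for 7 of 10. It was the highest for 19.0% of all tested genes and 23.2% of the protein-coding ones. Of the Ybx1-KO libraries it also had the most Ybx1, at 124 CPM, and a link between these was not tested. Nsun5 and Fto were highest in Ybx1-KO 2 and Mettl14 in control 2. Without Ybx1-KO 1 the median log2 fold change of the 10 genes was -0.0057 beside 0.38 over all tested genes, and 5 of 10 were above 0. Without Ybx1-KO 3, the shallowest library, the median was 0.53 beside 0.013 over all tested genes, and 9 of 10 were above 0. In that edgeR fit Nsun5 (adjusted p = 0.373) and Alyref (adjusted p = 0.380) had unadjusted p-values below 0.05, as did 1995 of the 15184 genes tested in it. Of the 10, 0 were called.

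**Figure D3:**
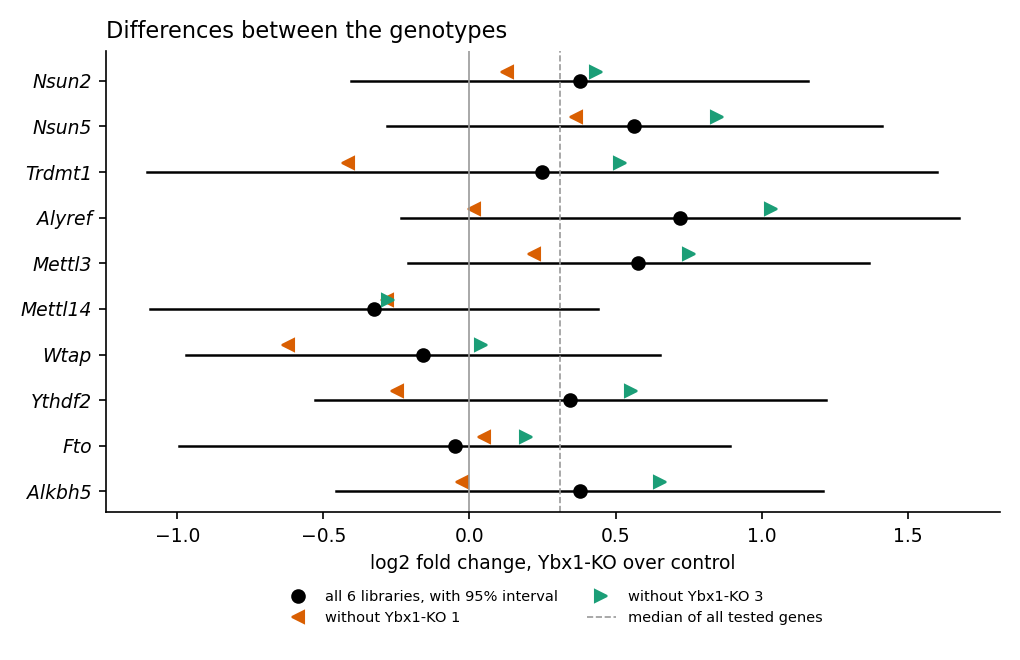
Log2 fold change of each gene, Ybx1-KO over control, with its 95% interval (black), and the value without Ybx1-KO 1 (orange) or without Ybx1-KO 3 (green); the dashed line is the median of all tested genes, 0.31. Every interval spans 0, and the coloured points are apart for every gene but Mettl14, where both stand at -0.28.

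Ratios of genes within a library do not depend on how libraries are scaled. Mettl14 and Mettl3 form a stable pair as proteins, and the ratio of their FPKM, Mettl14 over Mettl3, was 0.756, 0.955 and 0.938 in control and 0.290, 0.668 and 0.569 in Ybx1-KO NPCs. All Ybx1-KO values lay below all control values, and the mean log2 ratio differed by -0.87, or by -0.51 without Ybx1-KO 1. The summed m5C writers (Nsun2, Nsun5 and Trdmt1) over the summed m6A writers (Mettl3, Mettl14 and Wtap) gave 0.704, 0.973 and 0.927 in control and 1.09, 1.24 and 1.02 in Ybx1-KO NPCs, again apart, with Ybx1-KO above. Among all pairs of tested genes with counts in every library, 17.2% had ratios that did not overlap, and the share for ratios of sums was not computed.

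The erasers did not follow that split. Fto plus Alkbh5 over the m6A writers gave 0.559, 0.814 and 0.748 in control and 0.646, 1.01 and 0.568 in Ybx1-KO NPCs, with overlap. Fto over Alkbh5 gave 0.782, 1.27 and 1.74 in control and 0.510, 1.53 and 0.947 in Ybx1-KO NPCs, also with overlap.

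Over all 45 pairs of the 10 genes, the ratio did not overlap between the groups in 7 pairs. That is 15.6%, near the 17.2% of all pairs. The 7 pairs were Mettl3 over Mettl14, Mettl3 over Wtap, Alyref over Wtap, Nsun5 over Wtap, Nsun5 over Fto and Nsun2 over Mettl14, all higher in Ybx1-KO NPCs, and Trdmt1 over Alyref, which was lower.

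**Figure D4:**
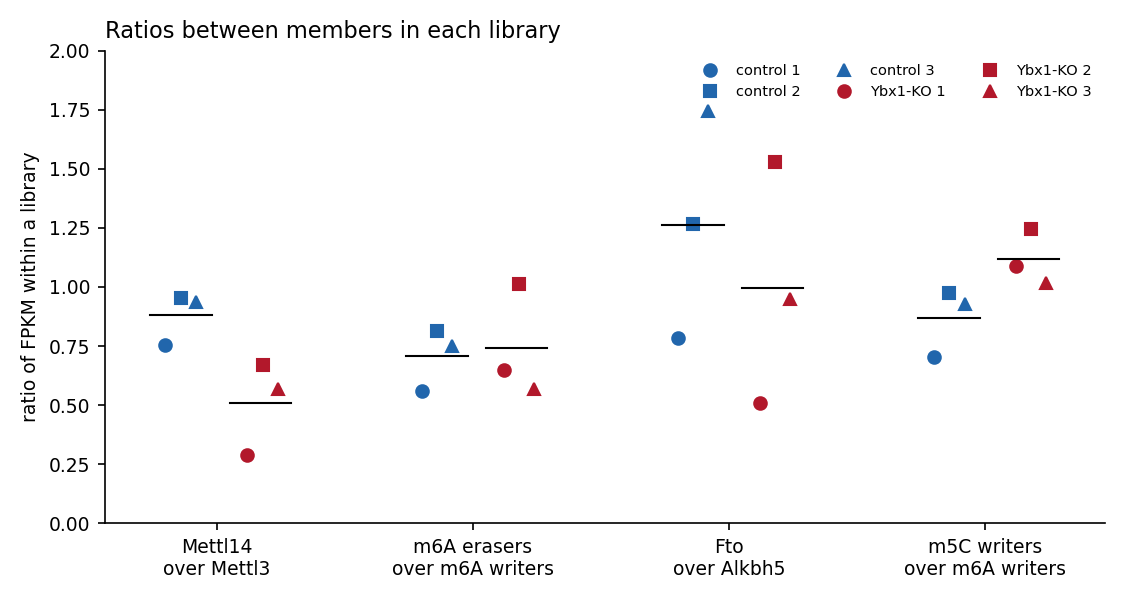
Ratios of FPKM within each library for 4 combinations of the genes, control in blue and Ybx1-KO in red, with group means as bars. Mettl14 over Mettl3 is lower and m5C writers over m6A writers higher in each Ybx1-KO library than in each control library, while both eraser ratios overlap; 17.2% of all pairs of single genes did not overlap.

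Across the 6 libraries, log2 CPM was positively correlated in 32 of the 45 pairs, with a median Pearson r of 0.517 and a range from -0.668 (Mettl3 with Mettl14) to 0.942 (Alyref with Mettl3). These are descriptions over 6 shared libraries that include Ybx1-KO 1, the top library of both Alyref and Mettl3. The genes whose pattern was most like that of Alyref were Gm16853 (r = 0.996), Ikzf5 (r = 0.984), Arf4os (r = 0.982), Gm25395 (r = 0.982) and Zfp180 (r = 0.981), each over the same 6 libraries and each highest in Ybx1-KO 1.

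YBX1 is named for the Y-box, a promoter element that holds the letters CCAAT in inverse orientation. RefSeq promoter windows of GRCm38.p6, from 250 bases before to 50 after a start, were at hand for 8 of the 10 genes, all but Nsun5 and Mettl14. CCAAT, or ATTGG where it lies on the other strand, was found in the windows of 3 of the 8, Alyref, Wtap and Alkbh5, and in 41.1% of the 27025 genes with such a window. Every match in these 3 genes was CCAAT on the gene's own strand. The inverse orientation, ATTGG, was in no window of the 8 genes. The windows below are those of the closely correlated pair Alyref (chr11:120598316-120598615, minus strand) and Mettl3 (chr14:52305075-52305374, minus strand), and of the eraser Alkbh5 (chr11:60537433-60537732, plus strand). Capitals mark CCAAT, which begins 87 bases before the start in Alyref and 48 bases before it in Alkbh5.
Alyref: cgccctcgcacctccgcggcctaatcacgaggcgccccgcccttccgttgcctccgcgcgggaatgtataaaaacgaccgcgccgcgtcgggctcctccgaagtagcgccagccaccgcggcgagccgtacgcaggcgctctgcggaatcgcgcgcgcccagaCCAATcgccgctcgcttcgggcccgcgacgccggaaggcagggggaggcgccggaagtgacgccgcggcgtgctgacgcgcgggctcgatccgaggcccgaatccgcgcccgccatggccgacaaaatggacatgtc
Mettl3: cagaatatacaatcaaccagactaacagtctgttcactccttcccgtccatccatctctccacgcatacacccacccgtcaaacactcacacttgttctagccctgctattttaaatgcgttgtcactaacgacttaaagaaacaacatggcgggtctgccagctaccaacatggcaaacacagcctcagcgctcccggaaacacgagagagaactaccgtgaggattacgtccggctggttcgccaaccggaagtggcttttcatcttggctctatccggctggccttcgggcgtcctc
Alkbh5: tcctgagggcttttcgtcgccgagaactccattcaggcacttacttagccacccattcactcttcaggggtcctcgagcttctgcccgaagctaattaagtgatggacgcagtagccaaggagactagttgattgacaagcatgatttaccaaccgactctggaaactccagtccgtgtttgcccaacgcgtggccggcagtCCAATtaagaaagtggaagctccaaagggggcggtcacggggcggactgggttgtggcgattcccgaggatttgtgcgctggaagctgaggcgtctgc
The window of Mettl3 holds neither CCAAT nor ATTGG. A match is a matter of letters, and whether Ybx1 binds there was not examined.

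The other genes of these pathways were read from a list by role. Of 35 genes, 34 passed the expression filter. Nsun7, an m5C writer homologue, did not, at 0.112 to 8.11 CPM. In all, 0 of 34 were called, and 4 (3 higher, 1 lower) had an unadjusted p below 0.05 against 11.2% of all tested genes. Log2 fold changes were above 0 for 17 and below 0 for 17, with a median of 0.033 beside 0.31 over all tested genes. Fitted with protein-coding genes alone, the median was 0.10 for the list beside 0.16 over all genes tested there. The groups did not overlap for 2 genes, or 5.88% of the list, where the share over all tested genes was 13.1% either way. This count depends on the scaling, since 5 of 34 did not overlap with total counts (11.1% of all tested genes) and 4 of 34 with DESeq2's size factors (13.4%).

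By role, the m5C writers held 2 of the 4 genes with an unadjusted p below 0.05. Nsun3, which methylates a mitochondrial tRNA, had 13.3, 24.4 and 19.5 CPM in control and 10.2, 7.26 and 7.41 CPM in Ybx1-KO NPCs. All Ybx1-KO libraries lay below control, as for 8.16% of all tested genes, and the log2 fold change was -1.20 (standard error, SE, 0.448, adjusted p = 0.432 by the edgeR quasi-likelihood fit, Benjamini-Hochberg adjusted). Nsun4, which acts in mitochondrial ribosome assembly, had 8.03, 9.40 and 6.90 CPM in control and 5.25, 13.1 and 57.6 CPM in Ybx1-KO NPCs. A log2 fold change of 1.64 (SE 0.643) rested on Ybx1-KO 3, the library with most reads outside genes, and was 0.18 without that library. It was the one gene of the list called in any fit, at 2.00 without Ybx1-KO 1 and 1.82 without Ybx1-KO 2.

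Nop2, a nucleolar m5C writer of ribosomal RNA, had 16.5, 20.1 and 21.7 CPM in control and 25.1, 26.8 and 27.0 CPM in Ybx1-KO NPCs, with every Ybx1-KO library above control and a log2 fold change of 0.44 (SE 0.371). With total counts its groups overlapped, while those of Nsun3 were apart under all 3 scalings. Nsun6, a tRNA and mRNA writer, gave 0.25 (SE 0.564).

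Among m6A factors, Trmt112, a small partner protein that activates several methyltransferases, had 27.7, 28.6 and 53.4 CPM in control and 149, 58.0 and 45.3 CPM in Ybx1-KO NPCs. The highest library was again Ybx1-KO 1, the groups overlapped, and the log2 fold change of 1.21 (SE 0.474) was 0.43 without that library. Exons of Trmt112 overlap those of Prdx5 and Esrra on the other strand. Igf2bp1, an RNA-binding protein that stabilises m6A-marked mRNA and is abundant in embryonic tissue, had 34.6, 116 and 38.1 CPM in control and 174, 189 and 103 CPM in Ybx1-KO NPCs. Control 2 overlapped the Ybx1-KO range here, although the groups were apart with total counts and with DESeq2's size factors, and the log2 fold change was 1.31 (SE 0.493, adjusted p = 0.432 by the edgeR quasi-likelihood fit, Benjamini-Hochberg adjusted).

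Apart from Trmt112 and Igf2bp1, no m6A gene of the list had an unadjusted p below 0.05 in the same test, nor did the genes of m5C oxidation and reading. The 5 other subunits of the m6A writer complex ran from -0.52 for Virma (listed as 1110037F02Rik) to 0.34 for Rbm15 on the log2 scale, with a median of 0.16. The 4 genes of m5C oxidation, the Tet dioxygenases and Alkbh1, had a median of -0.21, and the 3 other m5C readers had a median of -0.57. The 12 other m6A readers, Igf2bp1 included, had a median of -0.14, with Ythdf1 at -0.13 and Ythdf3 at -0.24, both below 0 where their relative Ythdf2 was above it, and each by less than its standard error.

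**Figure D5:**
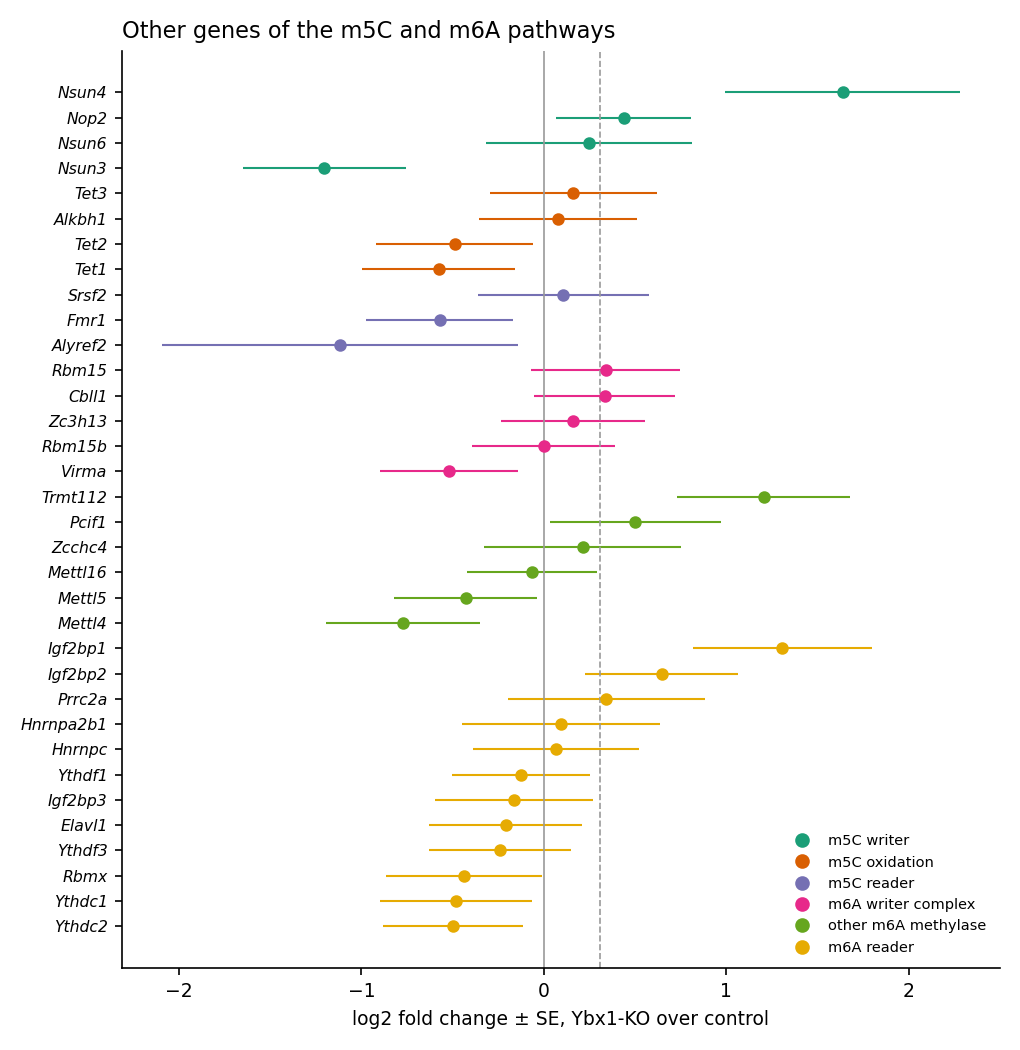
Log2 fold change ± SE, Ybx1-KO over control, for the 34 tested genes of the list, coloured by role; the dashed line is the median of all tested genes, 0.31. Nsun4, Igf2bp1 and Trmt112 lie farthest to the right and Nsun3 and Alyref2 farthest to the left, and 0 of 34 were called.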

How the data were processed

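The authors sequenced total RNA of sorted NPCs, mapped the reads, counted read pairs per gene with HTSeq 0.6.1p1 and deposited raw counts per gene symbol, 1 table per library, neither normalized nor filtered. The submitters' notes name mm10 (GRCm38.p5), and the aligner and the strand setting are not given in the sources used here. The tallies of reads outside genes were used only to describe the libraries. Groups came from the sample titles and genotype labels.

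Counts were TMM-normalized, filtered at a mean FPKM above 1 in either group (union exon lengths of GENCODE M21, GRCm38; 47624 of 51733 symbols matched directly and 356 by an older symbol) and tested with edgeR 4.0.16 (quasi-likelihood F-test, Benjamini-Hochberg adjustment) in R 4.3.3, beside DESeq2 1.42.0 and limma 3.58.1. All genes entered 1 fit with no covariate, p-values were adjusted over all of them, and intervals and standard errors come from that fit. The study used limma-voom, run here as an alternative beside DESeq2, other scalings and filters, protein-coding genes alone, leaving out each library, and summing libraries that share a title number. Code was first tested on simulated data, in which edgeR recovered known changes at a low spread between libraries but none at the spread of these libraries, so an absence of calls says little. Totals on genes ran from 4743279 to 23883542, and without molecular identifiers the limit of 3 counts covers counting error only. No library was a copy of another: in all 15 pairs the chi-square was at least 36.0 times its degrees of freedom. The coefficient of biological variation shared by the genes was 0.800.

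The 10 genes, the other lists, the markers and the tests were chosen with earlier results of these data known. Genes named beyond the 10 are those of the wider list that were called, had an unadjusted p below 0.05 or did not overlap between groups, those with its highest and lowest log2 fold change, and the 5 most like the gene of the 10 with the smallest p. Other names (Alyref2, Nsun6, Nsun7, Rbm15, Virma, Ythdf1, Ythdf3) were added with their values seen, to fill out the roles. Writers of other RNA marks were named where their groups did not overlap with TMM or, for Rpusd2, with total counts. Log2 CPM for correlations used a pseudocount of 0.5.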

Additional observations from a re-analysis of the deposited data

How the results depend on the processing

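Of 140 log2 fold changes of the 10 genes under 14 alternatives, 128 kept their direction, 12 reversed and 0 passed the threshold; 0 of the 10 were called in any fit, also at an adjusted p below 0.1. The reversed values were 0.026 for Wtap and 0.014 for Fto with total counts, 0.013 for Fto with DESeq2 and with its size factors in edgeR, and those without 1 library, where ranges were -0.62 to 0.039 for Wtap, -0.62 to 0.19 for Fto, -0.41 to 0.51 for Trdmt1, -0.25 to 0.55 for Ythdf2 and -0.026 to 0.65 for Alkbh5. Over the same fits the log2 ratio of erasers to m6A writers ran from -0.21 to 0.21 and that of Fto to Alkbh5 from -0.79 to 0.0038. The cause was not tested.

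Genes called over all tested genes numbered 0 in the main edgeR fit, 0 with limma-voom, 180 with DESeq2, 193 with no filter and 207 with libraries summed by title number. Without 1 library they numbered 0 to 725 (73 without control 2, 696 without Ybx1-KO 1, 725 without Ybx1-KO 2). The study, which used voom at the same thresholds, reported both upregulated and downregulated genes, where limma-voom here called 0. The legend of its volcano plot names more control samples than the 3 in its text and used here. The cause of the difference in calls was not tested. Of the wider list 1 gene, Nsun4, was called in the summed fit (log2 fold change 1.93) and 0 to 1 without 1 library. Ybx1 passed the threshold with DESeq2 (-2.44), with no filter (-2.52), without Ybx1-KO 1 (-3.49) and without Ybx1-KO 2 (-2.41), and ran from -3.49 to -1.95 without 1 library. The median log2 fold change over all tested genes moved from 0.31 to between 0.013 and 0.70. Genes with an unadjusted p below 0.05 split into 1484 higher and 909 lower in the main edgeR fit. The split was 1755 and 503 with total counts, and 756 and 899 with limma-voom. Depth limits Trdmt1 most, at 32 counts in Ybx1-KO 3. No paired analysis was possible because the labels give no number shared by a control and a Ybx1-KO library; the replicate numbers used here follow the order of deposit and only name the libraries.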

Other observations

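Writers of other RNA marks were read the same way, as 23 further genes, all tested. Of these 0 were called and 3 had an unadjusted p below 0.05. With TMM their groups did not overlap for 7 genes, 3 below and 4 above control. That is 30.4% of the list beside 13.1% of all tested genes, and the median log2 fold change was 0.13. Which genes were apart depended on the scaling. With total counts, as FPKM, Mettl1, Cmtr1, Pus3 and Trmt10c overlapped, Dkc1, Trub2 and Nat10 stayed apart, and Rpusd2 came apart. Fewer of the 23 were thus apart than with TMM, and the share over all tested genes was 11.1% at that scaling. Dkc1, the catalytic subunit of the pseudouridine-placing snoRNPs, had 55.5, 62.1 and 55.7 CPM in control and 22.1, 36.9 and 32.5 CPM in Ybx1-KO NPCs, a log2 fold change of -0.92 (SE 0.368, adjusted p = 0.439 by the edgeR quasi-likelihood fit, Benjamini-Hochberg adjusted). Pus3, a tRNA pseudouridine synthase, had 17.9, 12.4 and 15.7 CPM in control and 7.48, 5.83 and 7.97 CPM in Ybx1-KO NPCs, at -1.11 (SE 0.469). Trmt10c, a subunit of mitochondrial RNase P, was the third gene below, at -0.77.

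Above control in every Ybx1-KO library was Trub2, a mitochondrial pseudouridine synthase, with 12.7, 14.1 and 11.0 CPM in control and 31.6, 18.9 and 24.3 CPM in Ybx1-KO NPCs, at 0.98 (SE 0.401). Nat10, which acetylates cytosine, gave 0.68, Mettl1, which places 7-methylguanosine on tRNA, gave 0.74, and Cmtr1, which methylates the mRNA cap, gave 0.35 in the same direction. Leaving out each library in turn kept the direction of all 7 genes that were apart with TMM.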
